A study of Mus musculus with 12 samples.

Results

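The miR-183 cluster holds 3 miRNAs, mmu-miR-183, mmu-miR-96 and mmu-miR-182, whose hairpins lie side by side in the genome and are processed from a common primary transcript. All 3 are carried by the TaqMan low-density array (TLDA) used in this study, which holds 375 miRNA assays, and they were taken by their assay names (mmu-miR-183-002269, mmu-miR-96-000186 and mmu-miR-182-002599). Primary lung endothelial cells were isolated with CD144 and CD31 beads from male C57BL/6N wild type mice aged 6 to 10 weeks, with 3 mice pooled for each isolation, and were grown to confluence. Cells were left unstimulated (control, 4 arrays), or were exposed for 6 hours to 10 μg/mL of Tri-DAP, called TD in the labels (4 arrays), or to 10 μg/mL of MDP (4 arrays). No cell of the series carried an engineered allele. Arrays are named here by group and by the number in their label (control 4, 7, 10 and 13; Tri-DAP 5, 8, 11 and 14; MDP 6, 9, 12 and 15). The question asked of the cluster was whether miR-183 moved together with its cluster mates.

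Tri-DAP is a peptide of the bacterial cell wall that is sensed in the cytosol by NOD1, and MDP, muramyl dipeptide, is the ligand of NOD2. Both receptors signal to NF-κB and so to the transcription of cytokine genes. A miRNA guides the RNA-induced silencing complex to mRNAs that pair with its seed, bases 2 to 8 from the 5′ end. The miR-183 cluster is conserved among vertebrates and is best known from sensory organs, where photoreceptors and hair cells express it at high levels. Mutations in the seed of miR-96 cause progressive hearing loss in mice and in humans. miR-182 also has a known role in activated helper T cells, where it targets Foxo1. Members of one primary transcript are made together, but the amount of each mature miRNA also depends on processing and decay.

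The mature sequences are shown because the members differ by few bases in the seed, which bears both on the mRNAs they can pair with and on the assays that have to tell them apart. They were taken from RefSeq on GRCm38.p6, in which all 3 members had an entry, and are written 5′ to 3′ with the seed in capitals. The names of the array assays carry no arm, and they were read as the 5p arm, which is the sequence given here.
mmu-miR-183-5p: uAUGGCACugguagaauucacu
mmu-miR-96-5p: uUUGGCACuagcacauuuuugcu
mmu-miR-182-5p: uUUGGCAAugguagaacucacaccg
The seeds of miR-183 and miR-96 differ by A2U, with positions counted from 1 at the 5′ end and the base of the first-named miRNA written first. Those of miR-96 and miR-182 differ by C8A, and those of miR-183 and miR-182 by both A2U and C8A. No seed was therefore shared within the cluster. Over the whole length the order was another: miR-183 and miR-182 were identical at 18 of 22 positions, miR-183 and miR-96 at 13 of 22, and miR-96 and miR-182 at 12 of 23. miR-183 and miR-182 share the run UGGUAGAA directly after the seed, from position 9. Among 1738 mature mouse miRNAs in the RefSeq table, miR-1271-5p had the seed of miR-96, and it has no assay on this array. No other mature miRNA of the table had the seed of miR-183 or of miR-182.

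All 3 hairpins lie on the minus strand of chromosome 6 (GRCm38.p6), with miR-183 at chr6:30169668-30169737, miR-96 at chr6:30169446-30169551 and miR-182 at chr6:30165918-30165992. miR-183 and miR-96 are 116 bases apart, and 3453 bases separate miR-96 from miR-182, so that the cluster spans 3820 bases. The annotation places the hairpins inside the long non-coding RNA gene Mirc35hg, between the protein-coding genes Nrf1 and Ube2h.

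Each well of a TLDA reports the PCR cycle at which the fluorescence of its assay crosses a threshold (Ct). A lower Ct means more RNA, 1 cycle corresponds to a factor of 2, and a well read as 40, the end of the run, reached no threshold. Between 231 and 254 miRNAs were measured per array, 174 were measured on all 12 arrays and 55 on none. The mean Ct of the 4 wells of U6, the reference RNA, ran from 18.3 on Tri-DAP 14 to 21.6 on Tri-DAP 8. The U6 wells of an array also differed among themselves, with an SD from 0.11 cycles on Tri-DAP 8 to 2.05 on MDP 12. It was 1.93 on Tri-DAP 14. This spread of the reference enters every value given relative to U6. Expression is given here as log2 expression relative to U6, which is the negative of the deposited normalized value, with undetermined wells left missing. The arrays carried the miRNAs that define endothelial cells: miR-126-3p had a mean Ct of 19.7 and miR-126-5p one of 21.3, each measured on all 12 arrays. On arrays 13, 14 and 15, which belong to 3 different groups, the summed level of both was the lowest of the series, 8.11 to 8.23 on the log2 scale relative to the array mean (the mean Ct of those miRNAs that every array measured), against 9.32 to 10.29 on the other 9 arrays. Results for miR-183 and miR-182 are given with and without these 3 arrays, while miR-96 keeps too few measured wells without them for a test.

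miR-182 was the member measured most often and earliest, on each of the 12 arrays, at a mean Ct of 31.0 ± 1.17 (SD, n = 12). miR-183 was measured on 11 arrays, at a mean Ct of 32.2 ± 0.49 (SD, n = 11), and miR-96 on only 5. Assays differ in efficiency, so a Ct places 2 different miRNAs only roughly. Within an array, 41.9% to 73.8% of the measured miRNAs had an earlier Ct than miR-182, and 62.0% to 79.7% had an earlier Ct than miR-183. miR-183 was thus read in the later part of the range on every array that measured it, while miR-182 fell in the earlier part on Tri-DAP 14 (43.7%) and MDP 15 (41.9%).

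For miR-183, the Ct was 32.2, 31.9, 32.4 and 31.6 on control 4, 7, 10 and 13. After Tri-DAP it was 33.3, 31.5 and 32.3 on Tri-DAP 5, 11 and 14, and the well of Tri-DAP 8 reached no threshold. After MDP it was 31.98, 32.2, 32.2 and 32.5 on MDP 6, 9, 12 and 15. In raw cycles the 3 groups overlapped, and the means of 32.01 ± 0.34 (SD, n = 4), 32.4 ± 0.92 (SD, n = 3) and 32.2 ± 0.22 (SD, n = 4) lay within the spread.

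Relative to U6, miR-183 was at −12.36, −11.87, −13.11 and −12.14 on the control arrays, in the same order. It was at −13.64, −12.91 and −14.05 on the 3 Tri-DAP arrays with a measured well. It was at −11.77, −12.24, −13.51 and −12.82 on the MDP arrays. The measured Tri-DAP values lay at the low end of the control range or under it, with Tri-DAP 11 above the lowest control array, and the MDP values ran through the control range. On Tri-DAP 8, the array with the latest U6, the undetermined well places the level under −18.40 only if its reaction worked. Whether it did was not tested. Over all arrays, 17 miRNAs, miR-183 among them, were undetermined on a single array only. Of these 17, 8 had a mean Ct on their other arrays at or before that of miR-183, a condition that miR-183 itself meets.

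The mean of miR-183 was −12.37 ± 0.53 (SD, n = 4) in control and −13.54 ± 0.58 (SD, n = 3) after Tri-DAP, while MDP gave −12.58 ± 0.75 (SD, n = 4). Tri-DAP against control gave a log2 difference of −1.17 (SE 0.63, 95% interval −2.53 to 0.20), with an unadjusted limma p of 0.0867 and an adjusted limma p of 0.998. The fit used 3 of the 4 Tri-DAP wells. The two-sided exact permutation test gave p = 0.0857, where the smallest p this design allows is 0.0286. Neither test passed the threshold of 0.05. By limma p, miR-183 was at rank 9 of 237 miRNAs tested. The members were chosen with earlier results of these same arrays known, so this rank is no independent evidence.

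Relative to U6, most miRNAs were lower after Tri-DAP: the median log2 difference of all 237 miRNAs tested was −0.24, and 178 of them had a lower mean than in control. With the array mean as the reference, the median of all miRNAs was 0.01 and the difference of miR-183 was −0.55 (95% limma interval −1.49 to 0.39). Without any normalization it was −0.36 (95% limma interval −1.37 to 0.65). With the undetermined well of Tri-DAP 8 entered at Ct 40 the difference was −2.38 (95% limma interval −4.69 to −0.08), and that setting passed the unadjusted threshold. Without arrays 13, 14 and 15 it was −0.83 (95% limma interval −2.61 to 0.95). The size of the difference of miR-183 therefore depended on the reference, on a single well and on these arrays, while its sign was the same under these settings.

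MDP against control gave a difference of −0.21 for miR-183 (SE 0.57, 95% interval −1.47 to 1.04, limma p = 0.717, adjusted limma p = 0.9997, exact permutation p = 0.686). Both stimulations were compared with the same control arrays. The direct comparison of MDP with Tri-DAP gave 0.95 (SE 0.62, 95% interval −0.41 to 2.32, limma p = 0.153, exact permutation p = 0.114). It was 0.37 relative to the array mean, 0.13 without normalization, 2.17 with the undetermined well at Ct 40 and 0.77 without arrays 13, 14 and 15, and the unadjusted threshold was passed in none of these settings. Without those 3 arrays the difference of MDP from control was −0.06. A difference between the stimulations was not shown for miR-183, and the interval leaves room for one.

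For miR-182, the Ct was 31.3, 31.5, 30.4 and 31.8 on control 4, 7, 10 and 13. It was 31.0, 32.4, 30.9 and 29.1 on Tri-DAP 5, 8, 11 and 14, and 31.8, 32.6, 30.8 and 28.8 on MDP 6, 9, 12 and 15. The earliest wells of miR-182 were those of Tri-DAP 14 and MDP 15, while control 13 had the latest well of the control group. On Tri-DAP 8, where miR-183 was undetermined, miR-182 was measured.

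Relative to U6, miR-182 was at −11.45, −11.48, −11.13 and −12.38 in control, at −11.29, −10.82, −12.32 and −10.82 after Tri-DAP, and at −11.55, −12.57, −12.07 and −9.10 after MDP. The groups overlapped throughout. The means were −11.61 ± 0.54 (SD, n = 4), −11.31 ± 0.71 (SD, n = 4) and −11.32 ± 1.54 (SD, n = 4), with the wider spread after MDP set by MDP 15. Tri-DAP against control gave 0.29 (SE 0.74, 95% interval −1.31 to 1.90, limma p = 0.699, exact permutation p = 0.486). MDP against control gave 0.29 as well (SE 0.74, 95% interval −1.32 to 1.89, limma p = 0.707, exact permutation p = 0.886), and MDP against Tri-DAP gave −0.01 (SE 0.74, limma p = 0.991). Without arrays 13, 14 and 15, the differences from control were −0.13 for Tri-DAP (95% limma interval −1.49 to 1.24) and −0.71 for MDP (−2.09 to 0.67), so no direction can be given for miR-182. MDP against Tri-DAP was −0.59 without these arrays. Without MDP 15 alone, the difference of MDP from control was −0.46.

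miR-96 was at the limit of detection. It reached the threshold on control 10 (Ct 35.3), control 13 (34.0), Tri-DAP 11 (34.8), Tri-DAP 14 (34.97) and MDP 9 (28.0). The other 7 wells, 2 of control, 2 of Tri-DAP and 3 of MDP, were undetermined. In the first 4 of these wells miR-96 was late, with 86.1% to 95.3% of the measured miRNAs having an earlier Ct.

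The well of MDP 9 stood apart. Its Ct was 6.86 cycles before the median of the other 4 measured wells of miR-96 and 6.01 cycles before the nearest of them, and only 25.4% of the miRNAs measured on that array had an earlier Ct. miR-183 and miR-182 gave no such reading on MDP 9, where their levels relative to U6 were −12.24 and −12.57, within the range of the other arrays. Wells of this kind were also seen for other miRNAs. The count took 255 miRNAs measured on at least 5 arrays, miR-96 among them. Of their 2783 wells, 16 lay at least 5 cycles before the median of the miRNA's other wells, 2 of them on MDP 9. The well of miR-96 itself is included in the 16 and in the 2. This count was made after the well of miR-96 had been seen. What gave the early reading was not tested.

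Relative to U6, miR-96 was at −16.03 and −14.59 on the control arrays, at −16.26 and −16.69 on the Tri-DAP arrays and at −8.02 on MDP 9. Tri-DAP against control gave −1.17 (SE 0.997, 95% interval −3.61 to 1.28) from 2 wells in each group. The limma p was 0.287, and the exact permutation test gave p = 0.333, which is the smallest value that 2 wells against 2 can give. The difference of −1.17 was −0.39 relative to the array mean and −0.23 without normalization. U6 was earliest on the arrays of both Tri-DAP wells, at a mean Ct of 18.6 on Tri-DAP 11 and 18.3 on Tri-DAP 14. With a single measured well, MDP could not be tested. With undetermined wells at Ct 40 the difference of Tri-DAP from control was −0.23 (95% limma interval −6.04 to 5.58) and that of MDP from control 0.34 (−5.47 to 6.15), the latter including the early well of MDP 9.

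**Figure D1:**
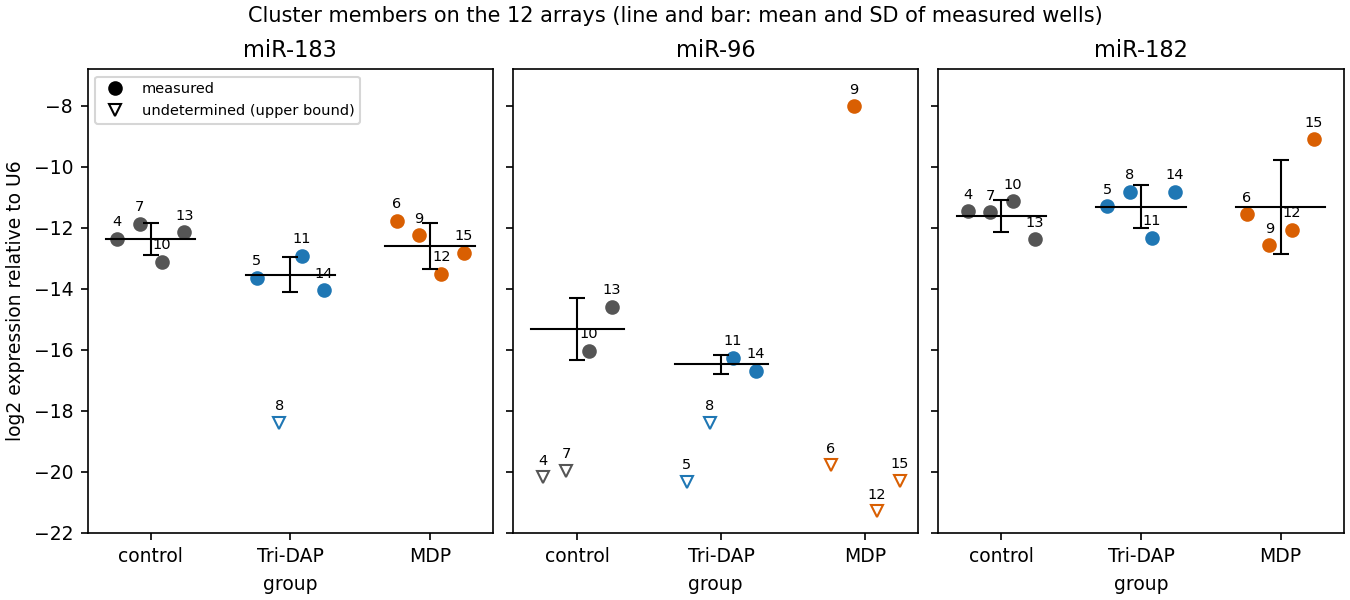
Log2 expression relative to U6 (y axis) of miR-183, miR-96 and miR-182 on each of the 12 arrays, by group (x axis) and with the array number beside each point. Filled circles are measured wells, open triangles are undetermined wells drawn at the upper bound that Ct 40 gives, and lines with bars are the mean and SD of measured wells where there are at least 2. The Tri-DAP values of miR-183 (−14.05 to −12.91) lie low against control (−13.11 to −11.87), miR-182 overlaps in all groups, and miR-96 has 5 measured wells, of which MDP 9 is at −8.02.

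No member of the cluster was called in any comparison at an unadjusted limma p under 0.05. Of all miRNAs tested, 1.69% were called in Tri-DAP against control (4 of 237), 1.23% in MDP against control (3 of 244) and 2.9% in MDP against Tri-DAP (7 of 241). No miRNA of the array passed after Benjamini-Hochberg adjustment in any of the 3 comparisons, so members that are not called do not set the cluster apart from the array. In the 3 comparisons, 3, 2 and 2 members could be tested, and the median log2 difference of the tested members was −1.17, 0.04 and 0.47, against −0.24, −0.02 and 0.18 over all miRNAs. These medians are relative to U6, and the values of miR-183 and miR-96 behind the first of them were nearer to 0 with the array mean as the reference.

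**Figure D2:**
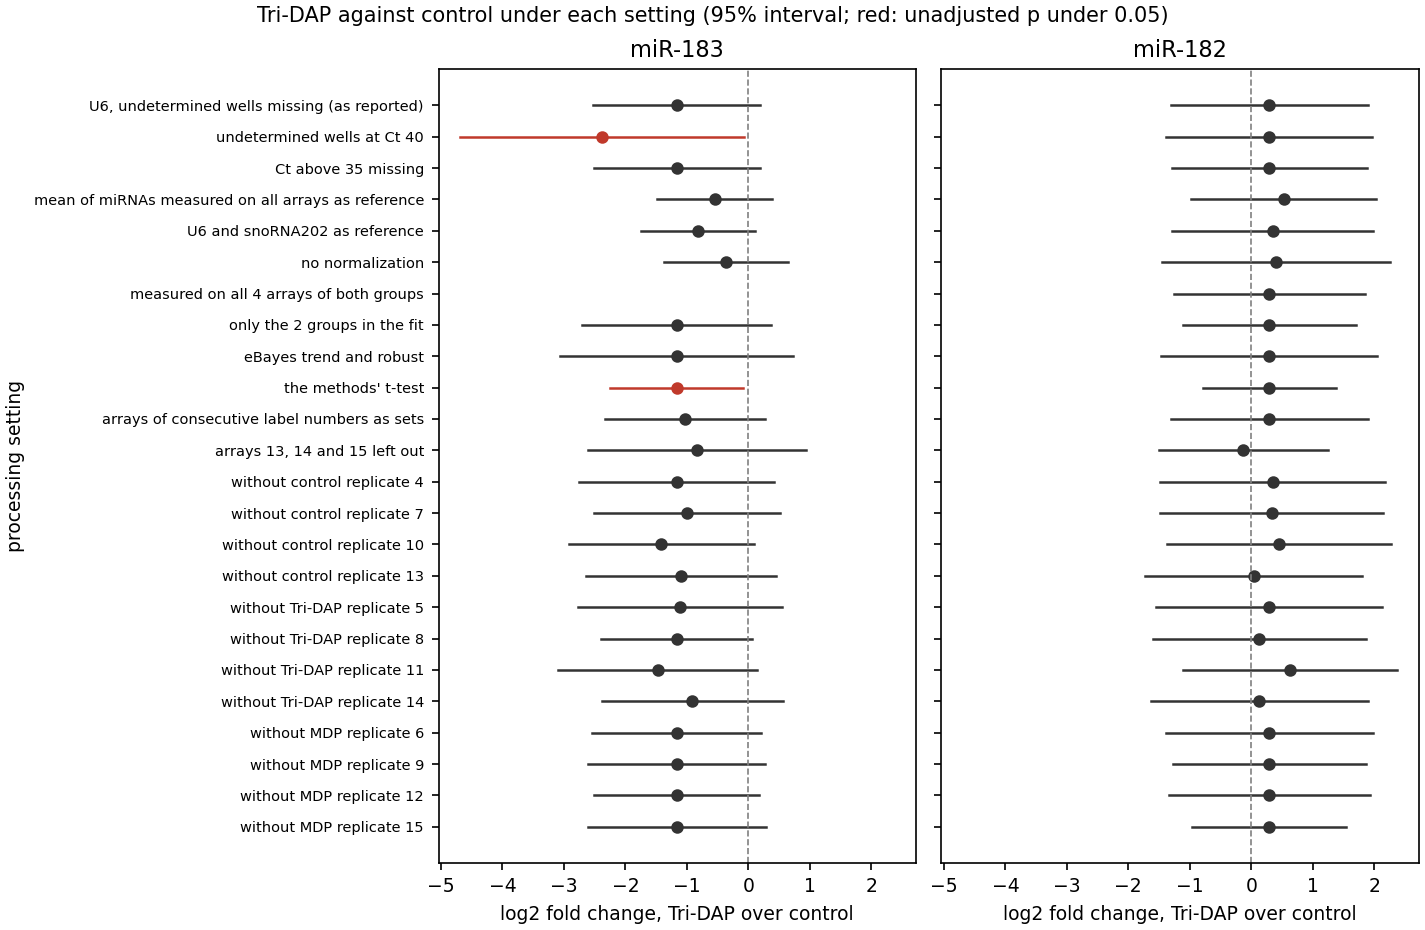
Log2 fold change of Tri-DAP over control (x axis) for miR-183 (left) and miR-182 (right) under each processing setting (y axis); points are estimates, lines are 95% intervals and the dashed line marks no difference. Red marks an unadjusted p under 0.05. For miR-183 all estimates are below 0 and 2 settings are red, undetermined wells at Ct 40 (−2.38) and the methods' t-test (−1.17), which the study's methods name for its other assays and not for the arrays, while for miR-182 all intervals cross 0.

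To ask whether one member moved apart from another, the difference of their log2 values was taken on each array, where the reference cancels. miR-183 minus miR-182 was −0.91, −0.39, −1.98 and 0.23 on control 4, 7, 10 and 13. It was −2.35, −0.59 and −3.23 on Tri-DAP 5, 11 and 14, and −0.22, 0.33, −1.44 and −3.72 on MDP 6, 9, 12 and 15. It was below 0 on 9 of 11 arrays, and the groups overlapped. Its lowest values were those of MDP 15 and Tri-DAP 14, the arrays with the earliest wells of miR-182.

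The mean of this difference was −0.76 ± 0.94 (SD, n = 4) in control and −2.06 ± 1.34 (SD, n = 3) after Tri-DAP, while MDP gave −1.26 ± 1.80 (SD, n = 4). Tri-DAP moved it by −1.30 relative to control (SE 0.91), which did not exceed the spread (two-sided exact permutation p = 0.171, adjusted p = 0.714). With the undetermined well of Tri-DAP 8 at Ct 40 it was −2.68 (exact permutation p = 0.0857), and leaving out 1 array at a time gave −2.03 to −0.71. For MDP against control the change was −0.50 (SE 1.01, exact permutation p = 0.714), and for MDP against Tri-DAP it was 0.80 (SE 1.19, exact permutation p = 0.514). Without arrays 13, 14 and 15 these changes were −0.38, 0.65 and 1.03, so the change after MDP turned its sign. The arrays therefore did not show that either ligand moved miR-183 and miR-182 apart, nor did they show that the pair moved together.

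miR-183 minus miR-96 was 2.92 and 2.45 on control 10 and 13, and 3.35 and 2.64 on Tri-DAP 11 and 14. These 4 values were close to each other, but they come only from arrays on which miR-96 reached the threshold, at Ct 34.0 to 35.3. On control 4 and 7, Tri-DAP 5 and MDP 6, 12 and 15, miR-183 was measured and miR-96 was not, so the difference there is unknown. The change after Tri-DAP was 0.31 (SE 0.43, exact permutation p = 0.667, smallest possible p 0.333). On MDP 9 the same difference was −4.22, owing to the early well of miR-96. miR-96 minus miR-182 was −4.90 and −2.22 on control 10 and 13, −3.94 and −5.87 on Tri-DAP 11 and 14, and 4.55 on MDP 9, with a change after Tri-DAP of −1.34 (SE 1.65, exact permutation p = 0.667). Of 9 comparisons planned over the 3 pairs, 5 could be computed, and the adjusted p was 0.714 in each. With undetermined wells at Ct 40, the change of miR-183 minus miR-96 after Tri-DAP was −2.15 in place of 0.31 (exact permutation p = 0.286).

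Relative to the array mean, miR-183 and miR-182 tended to run in opposite directions across all groups. Each was taken relative to the array mean, from which the members were left out, since the U6 of an array would be shared by both. Arrays with a lower miR-183 had a higher miR-182, with Pearson's r = −0.66 (permutation p = 0.0253) and Spearman's rho = −0.73 (permutation p = 0.0138) over 11 arrays. Both values of a point come from the same array and RNA and share this reference. The permutation takes the 11 arrays as independent. Its p-values may be too small if arrays of different groups share an isolation, which the labels do not say. With each array's group mean subtracted r was −0.62 (permutation p = 0.0440). Without Tri-DAP 5 and MDP 15, the arrays farthest from the median of miR-183, r was −0.71 over 9 arrays.

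This relation depended on the reference and on single arrays. Relative to U6, r was −0.26 (permutation p = 0.469) and rho −0.46 (permutation p = 0.154). Relative to U6 and snoRNA202 together, r was −0.41 (permutation p = 0.207) and rho −0.75 (permutation p = 0.0111). In raw cycles with no reference, r was −0.32 (permutation p = 0.337). With the undetermined well of Tri-DAP 8 at Ct 40 r was −0.021 (permutation p = 0.931). Leaving out one array at a time gave r from −0.81 to −0.59, and the threshold was missed without MDP 15 (r = −0.59, permutation p = 0.0709), without MDP 9 (r = −0.61, permutation p = 0.0586) and without Tri-DAP 14 (r = −0.62, permutation p = 0.0544). Without arrays 13, 14 and 15 together, r was −0.60 over 8 arrays (exact permutation p = 0.113). Under none of these settings was r above 0. Correlations of miR-96 with its mates were not computed, since only 5 arrays measured both miRNAs of either pair.

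**Figure D3:**
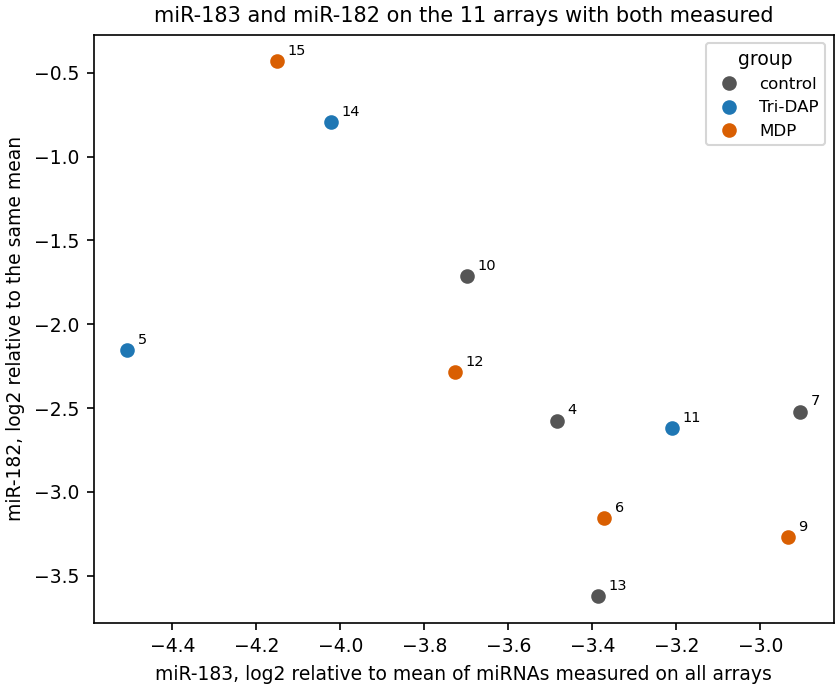
miR-183 (x axis) against miR-182 (y axis), both as log2 level relative to the array mean Ct, on the 11 arrays with both measured; colours are groups and numbers are array labels. Tri-DAP 14 and MDP 15 hold the highest miR-182 with a low miR-183, and Pearson's r over all 11 points is −0.66.

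Other polycistronic miRNAs on the same arrays are given as a description of what cluster mates can look like here. The miR-17-92 cluster, known for its role in cell proliferation, had 15 pairs of mates with r from 0.30 to 0.97 and a median of 0.71. The cluster of miR-106b, miR-93 and miR-25, a paralog of miR-17-92 in an intron of Mcm7, had 3 pairs with r from 0.35 to 0.70. The cluster of miR-200b, miR-200a and miR-429, which maintains the epithelial state by repressing Zeb1 and Zeb2, had 3 pairs with r from 0.67 to 0.82 over 9 to 11 arrays. All 21 pairs thus had an r above 0, and the pair of miR-183 and miR-182 one of −0.66. The SD of the within-array difference was 1.37 for miR-183 and miR-182, above that of the miR-106b cluster (0.33 to 0.62) and inside that of the miR-200b cluster (0.89 to 1.56). The miR-17-92 cluster ran from 0.21 to 1.28. The pairs of a cluster share miRNAs and arrays, the clusters differ in level, and no test was made between them.

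Over all 15051 pairs of the miRNAs measured on all 12 arrays, the median r was 0.01, and 95.5% of pairs had an r above that of miR-183 and miR-182. Among 57 of these miRNAs with a mean Ct between 30.0 and 33.2, within 1 cycle of the pair, the median r was also 0.01 over 1596 pairs, and 98.3% had a higher r. In that range 41.5% of pairs had a smaller SD of the difference, so the scatter between the mates was near the middle for miRNAs read this late.

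**Figure D4:**
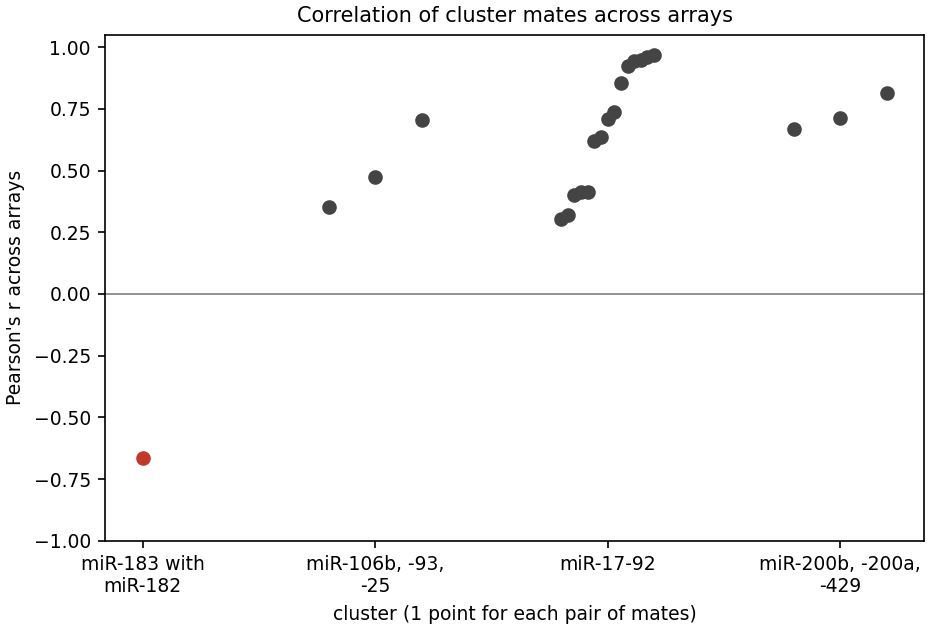
Pearson's r across arrays (y axis) for each pair of mates in 4 miRNA clusters (x axis), with 1 point for each pair, levels taken relative to the array mean Ct. The pair of miR-183 and miR-182 is at −0.66 and the 21 pairs of the other clusters lie between 0.30 and 0.97.

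The miRNAs most like miR-183 across the arrays, by Pearson's r on the same scale among those measured on at least 10 arrays, were miR-107 (r = 0.73 over 9 arrays shared), miR-667 (0.70 over 11), miR-708 (0.67 over 10), miR-425 (0.63 over 11) and miR-376b (0.61 over 10). Those most like miR-182 were miR-7a (0.77 over 10), miR-339-5p (0.62 over 12), miR-184 (0.61 over 11), miR-301a (0.59 over 12) and miR-500 (0.55 over 12). The 2 members shared none of these 5. Ordered from the highest r to the lowest among 206 miRNAs, miR-182 was at place 205 for miR-183, and miR-183 at place 204 for miR-182. These are the highest of many values over few arrays and are given as a description.

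Markers of other cell types were set beside these results, since the cluster is also expressed in epithelia and lymphocytes. Of 8 epithelial miRNAs, 7 were measured on 6 to 12 arrays, with miR-429 and miR-203 on all 12 (mean Ct 31.0 and 33.1), while miR-205, typical of stratified epithelium, was measured on 1 array. Of 5 leukocyte miRNAs, miR-150, miR-155 and miR-223 were measured on all 12 arrays, miR-142-3p on 9 and miR-142-5p on 2. miR-155, at a mean Ct of 25.4, is also expressed by endothelial cells. No member of either list, and neither form of miR-126, was called in any comparison, against the 1.69%, 1.23% and 2.9% over all miRNAs. The 6 epithelial miRNAs tested had differences from control of −1.38 to 0.59 after Tri-DAP (median −0.07) and of −0.91 to 1.76 after MDP (median −0.21), the highest being miR-200a after MDP. The 4 leukocyte miRNAs tested ran from −0.56 to 1.25 (median −0.18) and from −0.35 to 1.83 (median 0.23). The highest of these was miR-142-3p in both, measured on 3 arrays of each group, with 95% limma intervals of −0.66 to 3.15 after Tri-DAP and −0.07 to 3.73 after MDP.

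The summed level of the epithelial list, on the log2 scale relative to U6, ran from −11.57 to −5.71 in control, from −9.55 to −7.31 after Tri-DAP and from −9.72 to −6.70 after MDP, so the groups overlapped. That of the leukocyte list ran from −6.02 to −5.11, from −6.94 to −4.67 and from −6.01 to −5.10. On MDP 15 and Tri-DAP 14, the arrays with the most miR-182, the epithelial sum relative to the array mean was 1.97 and 1.71. It was 1.79 on control 13, where miR-182 was lowest among the 12 arrays on that scale, and 3.16 on control 4. The sum of control 4 came mostly from 1 early well of miR-200b, at Ct 25.6 against a mean Ct of 29.7 for that miRNA. The only well of miR-205, at Ct 27.5, also enters the sum of its array. The part of other cells in the levels of the cluster was not tested, and in RNA of a whole culture, fewer cells of a type and less RNA per cell cannot be told apart.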

How the data were processed

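Arrays were grouped by the treatment in their labels. The labels give no shared number or pairing, and no block was used. The study's text calls the samples of a group 4 independent isolations without saying which arrays share one. The p-values of group comparisons therefore measure the spread between such isolations, while the correlation takes arrays across groups as independent. According to the methods, 350 ng of total RNA per sample were reverse-transcribed and run for 40 cycles. The authors deposited Ct values, which are PCR cycles and not normalized, and normalized values, which are on the log2 scale and equal Ct minus the mean of 4 U6 wells (checked here to within 5.33e-15 cycles). The deposited table of fold changes between group means holds the study's own comparisons and was not used, nor were 12 unnamed columns with a value. The number of miRNAs measured per array, 231 to 254, describes the depth, and the number of arrays limits the precision.

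The sign of the normalized values was turned and wells at Ct 40 were set missing. All 375 miRNA assays entered 1 fit over 12 arrays (lmFit and eBayes, limma 3.58.1, R 4.3.3), in which a miRNA was tested with at least 2 measured wells in both groups, called at an unadjusted p under 0.05 and adjusted by Benjamini-Hochberg over all miRNAs tested. The call follows the methods' threshold. Single members and within-array differences were tested by two-sided exact permutation over the measured wells, with adjustment over the 5 pair comparisons that could be computed. The correlation used 100000 permutations, or all orders with 8 arrays, and it was the only 1 of 3 planned that could be computed, so its adjusted and raw p are equal. Scripts were tested on simulated data. The members and the lists of markers and clusters were chosen with earlier results of these data known. Named are all members, at most 4 markers from the ends of a list's range (further markers were named after their values were seen), and for miR-183 and miR-182 the 5 miRNAs with the highest r.

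Alternatives covered undetermined wells at Ct 40, a Ct limit of 35, other references, stricter detection, other fits, the t-test that the methods name for the other assays (called the methods' t-test; for the arrays they name limma), arrays of consecutive label numbers as sets, and leaving out each array. Leaving out arrays 13, 14 and 15 together was added after seeing the data. The real-time PCR and knockout experiments were not analysed here.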

Additional observations from a re-analysis of the deposited data

How the results depend on the processing

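Of 97 values under alternatives other than leaving out 1 array, for 13 results, 86 kept their direction and their side of the threshold. This count is no measure of robustness, since several alternatives leave the estimate of a result as it was and cannot change its direction. The t-test, the exact permutation test and the Ct limit of 35, for example, left miR-182 after Tri-DAP at 0.29. miR-183 after Tri-DAP passed the threshold with undetermined wells at Ct 40 (−2.38) and in the methods' t-test (−1.17). The change of miR-183 minus miR-96 after Tri-DAP reversed to −2.15 with undetermined wells at Ct 40. Without arrays 13, 14 and 15, chosen after seeing the data, miR-182 reversed to −0.13 after Tri-DAP and −0.71 after MDP, miR-183 minus miR-182 after MDP reversed to 0.65, and the correlation was −0.60. The correlation also missed the threshold relative to U6 (−0.26), to U6 and snoRNA202 (−0.41), with no normalization (−0.32) and with undetermined wells at Ct 40 (−0.021). Beyond the wells set to 40 and the arrays left out, the cause was not tested.

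Leaving out 1 array at a time, the correlation ran from −0.81 to −0.59. miR-182 in MDP against control ran from −0.46 to 0.70 (reversed without MDP 15) and in MDP against Tri-DAP from −0.75 to 0.41. miR-183 in MDP against control ran from −0.49 to 0.10 (reversed without MDP 12), and miR-183 minus miR-182 in MDP against control from −1.03 to 0.32 (reversed without MDP 15). miR-183 after Tri-DAP ran from −1.48 to −0.91 without passing, and miR-183 minus miR-182 after Tri-DAP from −2.03 to −0.71 (−2.68 with undetermined wells at Ct 40). Requiring 4 measured arrays gave no value for miR-183 after Tri-DAP or for miR-96, a Ct limit of 35 gave none for miR-96, and miR-96 gave none for MDP or without one of its wells. The labels give the groups no shared replicate numbers. When arrays with consecutive numbers in their labels formed the sets of a block, though no source states that they share an isolation, miR-183 after Tri-DAP was −1.03 and no member was called, while calls over all miRNAs went from 4 to 10 (Tri-DAP against control), 3 to 6 (MDP against control) and 7 to 8 (MDP against Tri-DAP). Over the alternatives other than leaving out 1 array, these counts ran from 2 to 10, 0 to 6 and 0 to 8, and leaving out 1 array gave 1 to 12, 1 to 7 and 2 to 17, each highest without Tri-DAP 8.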
